A study of Mus musculus with 31 samples.

Results

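Bile acid synthesis and transport were followed through 9 genes in mouse liver: Cyp7a1, Cyp8b1, Cyp27a1, Cyp7b1, Hsd3b7, Amacr, Baat, Slc10a1 and Abcb11. The members were the probes that the platform annotation gives to these symbols, and each gene had 1 probe, so the set is 9 of the 15095 genes named by a probe with a value on every array, and 9 of 21765 such probes. RNA of whole liver came from 31 BxD/TyJ strains, recombinant inbred mice bred from C57BL/6J and DBA/2J, and each strain was hybridised once, on a 2-colour glass array, against C57BL/6J liver RNA. All mice were male and 8 weeks old, 3 mice of a strain were pooled for its RNA, and 9 C57BL/6J mice were pooled for the common reference. The strain RNA carried Alexa Fluor 647 and the reference Alexa Fluor 555, and the dyes were not exchanged. A value is therefore a log2 ratio of 1 strain pool over 1 reference pool, most likely with the strain in the numerator, with 0 meaning equal signal. No source used here states the base or the direction, and the folds below assume base 2. If the ratio ran the other way every sign, and each higher and lower, would be turned. Cyp8b1 would then be lower on average than C57BL/6J and Cyp7a1 higher.

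Bile acids are made from cholesterol in hepatocytes. In the classic pathway Cyp7a1 adds the first hydroxyl group and sets the rate, and Cyp8b1 adds the hydroxyl group that makes cholic acid. The alternative pathway starts with Cyp27a1, which oxidises the sterol side chain, and goes on with Cyp7b1, which hydroxylates the oxysterols so formed. Hsd3b7 then rearranges the sterol ring, Amacr sets the form of the side chain that peroxisomes can shorten, and Baat joins the finished acid to taurine or glycine. Slc10a1 takes bile salts up from blood across the sinusoidal membrane, and Abcb11 pumps them into the canaliculus.

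The 4 arrays of BxD strains 23, 28, 40 and 42 stood apart from the rest, with a median correlation with the other arrays between 0.057 and 0.37 over all probes. The array of strain 38 came next at 0.57, and the others lay at 0.67 or above. Values also differed by probe identifier. The 2532 probes whose identifier is a multiple of 8 had panel means with a median of -0.58, and the other 19233 probes had 0.036. Amacr, Baat and Slc10a1 are multiples of 8 and the other 6 members are not. In a finer division, by the remainder after dividing the identifier by 480, these 3 genes also share 1 place, and they are described separately for that reason. A place here is only a shared remainder of the identifier. What it is on the slide is not given in the sources used here. Fewer cells of a type and less RNA per cell cannot be told apart in such bulk RNA, and with no dye exchange a dye effect on a probe cannot be told apart from its panel mean.

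Outside that place 5 members were on average higher in the BxD strains than in C57BL/6J and Cyp7a1 was lower. Over all 31 strains Cyp8b1 had the highest mean, at 0.49, closely followed by Cyp7b1 at 0.47. Without the 4 arrays that stood apart Cyp7b1 was above Cyp8b1, at 0.61 against 0.53. With the median of each gene's place in the finer division subtracted, Hsd3b7 was highest over 31 strains, at 0.53 against 0.43 for Cyp8b1. Cyp7b1 had by far the widest spread, with a lowest and a highest strain 13.7-fold apart, the lowest being on 1 of the 4 arrays. A test of each panel mean against 0 was made in limma, with Benjamini-Hochberg adjustment over all probes and a threshold of 0.05. All 9 members passed, 5 being higher and 4 lower, and 75% of all probes passed as well, 37.4% being higher and 37.6% lower, so that a pass was the usual outcome on these arrays. Means are given ± SE over 31 strains.

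In the classic pathway the 2 hydroxylases lay on opposite sides of the reference. Cyp7a1 had its lowest value of -0.96 in strain 15, a median of -0.18 and its highest value of 0.18 in strain 38. It lay below 0 in 28 of 31 strains, with a mean of -0.23 ± 0.04 (limma adjusted p = 6.7e-06), or 0.85 of the C57BL/6J signal. The second lowest strain, 34, had -0.59, and the SD of 0.23 was larger than that of 44.3% of probes. Cyp8b1 had its lowest value of -0.16 in strain 12, a median of 0.48 and its highest value of 1.27 in strain 22. Strain 12 was the single strain below 0, and the mean of 0.49 ± 0.06 (limma adjusted p = 1.86e-09) was a 1.41-fold higher signal than in C57BL/6J. The strains next to the top were 39, at 1.03, and 5, at 0.96.

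In the alternative pathway both enzymes were higher on average in the BxD strains. Cyp27a1 had its lowest value of -0.81 in strain 40, a median of 0.20 and its highest value of 0.82 in strain 18, closely followed by strain 9 at 0.81. It lay above 0 in 27 strains, with a mean of 0.21 ± 0.05 (limma adjusted p = 0.000465). Strain 40, 1 of the 4 arrays that stood apart, was isolated at the low end, since the second lowest strain, 23, had -0.14. Cyp7b1 had its lowest value of -1.32 in strain 28, a median of 0.27 and its highest value of 2.46 in strain 16. Strains 34 and 12 followed at 2.04 and 1.89, and strain 38, at -1.01, was the second lowest. Strain 28 is 1 of the 4 arrays that stood apart, and the array of strain 38 came next after those. Its mean was 0.47 ± 0.15 (limma adjusted p = 0.00326), with 22 strains above 0 and 9 below. The SD of 0.84 was the 99th largest of all probes, larger than that of 99.5% of them, and without the 4 arrays it was 0.79.

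Hsd3b7, in the middle of the route, and Abcb11, at its end, were both higher on average in the BxD strains. Hsd3b7 had its lowest value of -0.17 in strain 23, a median of 0.32 and its highest value of 1.44 in strain 1. Strain 19 reached 1.28 and no other strain passed 0.63, so that 2 strains stood well above the rest. The mean of Hsd3b7 was 0.33 ± 0.06 (limma adjusted p = 1.27e-05), with 26 strains above 0. Abcb11 had its lowest value of -0.37 in strain 40, a median of 0.25 and its highest value of 1.17 in strain 2. It lay above 0 in 26 strains, and its mean was 0.31 ± 0.06 (limma adjusted p = 1.42e-05), or a 1.24-fold higher signal. When the mean was tested against 0.2 in place of 0, in either direction, Cyp8b1 alone of these 6 genes passed. With the median of each gene's fine place subtracted, the means of 4 of the 6 moved by more than 1.5 times and still passed: Cyp7a1 had -0.13, with 20 of 31 strains below 0, Cyp27a1 had 0.14, Hsd3b7 0.53 and Abcb11 0.18.

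**Figure D1:**
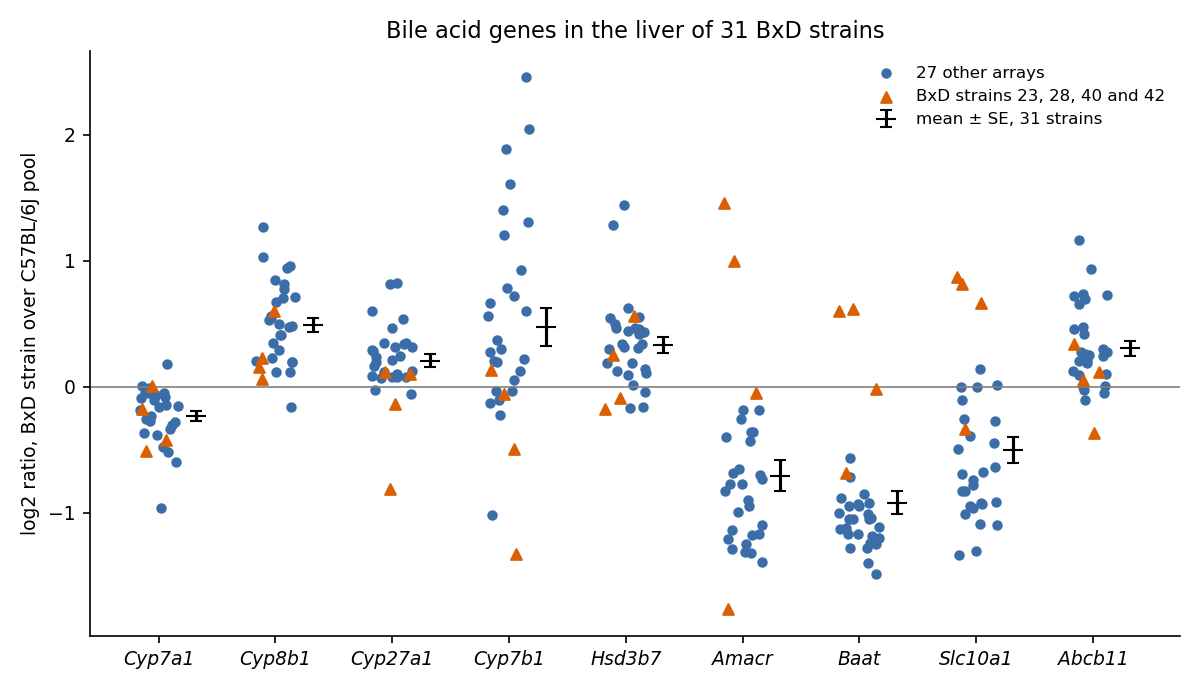
The log2 ratio of each BxD strain over the C57BL/6J pool (vertical axis) is plotted for the 9 bile acid genes (horizontal axis, jittered), with triangles for strains 23, 28, 40 and 42, circles for the other 27 strains, and the mean ± SE over 31 strains beside each gene. Cyp7b1 spans -1.32 to 2.46, while in Amacr, Baat and Slc10a1 the strains above 0.5 are all among the triangles.

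Amacr, Baat and Slc10a1 were lower in most BxD strains. Amacr and Slc10a1 followed the other probes of their place with and without the 4 arrays that stood apart. No probe of the place had r over 0.5 with Baat without those arrays. Amacr had its lowest value of -1.76 in strain 28, a median of -0.77 and its highest value of 1.46 in strain 40. Baat had its lowest value of -1.48 in strain 20, a median of -1.05 and its highest value of 0.62 in strain 23. Slc10a1 had its lowest value of -1.33 in strain 21, a median of -0.67 and its highest value of 0.87 in strain 23. Strains 23 and 40 were above 0 in all 3 genes, and they were the only ones above 0 for Amacr and Baat. The means were -0.70 ± 0.12 for Amacr, -0.92 ± 0.09 for Baat and -0.50 ± 0.10 for Slc10a1 (limma adjusted p = 1.08e-06, 6.17e-12 and 2.95e-05).

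The place holds 44 probes, whose mean pairwise correlation over the 27 other strains was 0.63. That was the highest of the 464 places with a probe, the second highest being 0.48 and the median 0.025, and the places of the other 6 members had values between 0.024 and 0.045. Of the 41 probes there that belong to no member, 39 had a panel mean below 0, and the median of their panel means was -0.59. With the 43 other probes of the place, the median correlation over 31 strains was 0.81 for Amacr, 0.77 for Baat and 0.89 for Slc10a1. Without the 4 arrays these medians were 0.87 for Amacr, 0.25 for Baat and 0.83 for Slc10a1, and the probes with r over 0.5 were 37 of 43 for Amacr, 0 for Baat and 36 for Slc10a1.

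When the median of the place was subtracted on each array, Slc10a1 had a mean of 0.059 ± 0.031 and no longer passed (limma adjusted p = 0.105), and its SD was 0.17, against 0.58 before. Without the 4 arrays it passed as higher after the same subtraction (0.087 ± 0.030, limma adjusted p = 0.0134), above 0 in 20 of 27 strains. Over all 31 strains the fine subtraction gave Amacr a mean of -0.15 ± 0.06 (limma adjusted p = 0.0192). For Baat it gave -0.36 ± 0.06 (limma adjusted p = 3.76e-06), with 27 of 31 strains below 0. With medians of the 8 coarse places subtracted in their stead, Amacr no longer passed (-0.13, limma adjusted p = 0.215). In the 27 strains without the 4 arrays the fine subtraction changed the SD of Baat to 0.37, against 0.20 before it. A further 3 bile and sterol genes lay at the same place, namely the oxysterol hydroxylase Cyp39a1 (-0.67 ± 0.12), the efflux transporter Abcg2 (-0.60 ± 0.10) and the cholesterol carrier Star (-0.15 ± 0.11, not passed). After the subtraction Cyp39a1 had -0.12, Abcg2 -0.039 and Star 0.40. The subtraction was chosen after the values were seen, and it also removes whatever the genes of a place have in common.

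**Figure D2:**
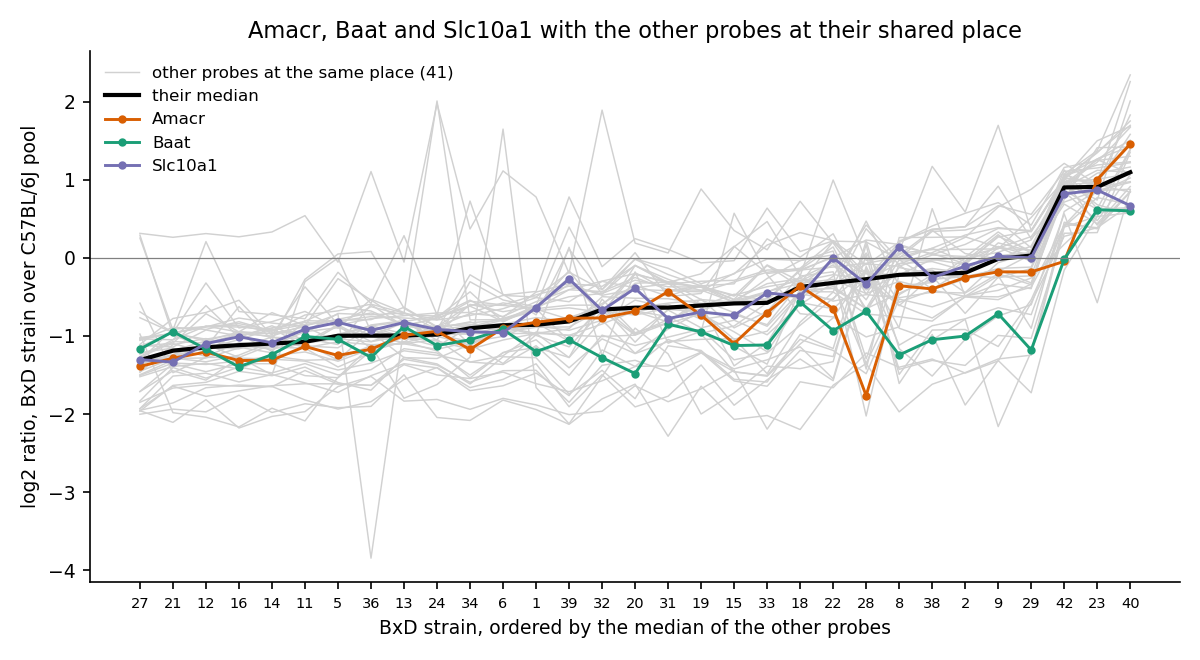
The log2 ratio over the C57BL/6J pool (vertical axis) is drawn across the 31 BxD strains (horizontal axis, ordered by the median of the other probes) for the 44 probes of 1 place: grey lines for 41 probes of other genes, a black line for their median, and coloured lines for Amacr, Baat and Slc10a1. Amacr and Slc10a1 run close to the black line in most strains, and that line is highest in strains 42, 23 and 40. Offsets over 0.5 were counted from the median of all 44 probes. Amacr had such an offset in 2 strains, 28 and 42, Slc10a1 in 1, strain 39, and Baat in 9, with 29 and 8 among them.

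Cyp7b1 is known in mouse liver as a gene with higher expression in males, and its strains were set beside 18 probes of other sex-biased or growth hormone dependent genes. C6, a complement component that is also higher in males, had its lowest value of -1.20 in strain 38, a median of 0.58 and its highest value of 1.72 in strain 16. Cyp4a12a, a male-specific fatty acid hydroxylase, had its lowest value of -2.36 in strain 38, a median of -0.13 and its highest value of 1.30 in strain 16. Strain 16 was thus the highest of 31 for Cyp7b1, C6 and Cyp4a12a, and strain 38 was the lowest for C6 and Cyp4a12a and the second lowest for Cyp7b1. Strain 38 also had the highest value of the female-biased genes Cyp2a4 (1.01) and Cyp2b9 (1.39), the last of these chosen after its values were seen. Ghr and a Mup3 probe were lowest and Socs2 was highest in strain 38 as well, the other Mup3 probe being lowest in strain 28. Further genes of the list had their extremes elsewhere. Cyp2b10 was highest in strain 24, Cyp3a41a in strain 15 and Cux2 in strain 28, and the male-biased Elovl3, Cyp2d9 and Slco1a1 were lowest in strains 21, 14 and 5. Strain 28, the lowest for Cyp7b1, had C6 at 0.29 and Cyp4a12a at -0.12, away from the low end.

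Across strains Cyp7b1 correlated with C6 at r = 0.64 (two-sided permutation p = 0.00013) and rho = 0.68 (permutation p = 5e-05), over 31 strains. Leaving out strains 16 and 34, the farthest from the Cyp7b1 median, gave r = 0.58, and leaving out the 4 arrays gave r = 0.65. With Cyp4a12a the values were r = 0.59 (permutation p = 0.00062) and rho = 0.60 (permutation p = 0.00044), with r = 0.48 without strains 16 and 34 and 0.71 without the 4 arrays. These are 2 of 18 relations, and with adjustment over all 21764 other probes neither passed (limma adjusted p = 0.107 for C6 and 0.114 for Cyp4a12a). The complement gene C9, among the 3 genes with the highest correlation with Cyp7b1, had r = 0.65 and its lowest value, -0.99, in strain 38 as well; its probe and that of Cyp4a12a are multiples of 8. Ovgp1 (r = 0.66) and Bnipl (r = 0.65) were the others, and Mettl6, Dipk2b and Cap2 had the lowest values, between -0.65 and -0.64. No probe (0%) passed as following Cyp7b1 in limma, although 16.2% of probes had an unadjusted p under 0.05, or 6.98% without the 4 arrays. The male-biased Elovl3 (r = -0.10), Slco1a1 (r = -0.22) and Cyp2d9 (r = -0.24) had negative correlations with Cyp7b1 that did not pass. The Mup3 probes of the same list had positive ones, r = 0.071 and 0.23, that did not pass either.

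**Figure D3:**
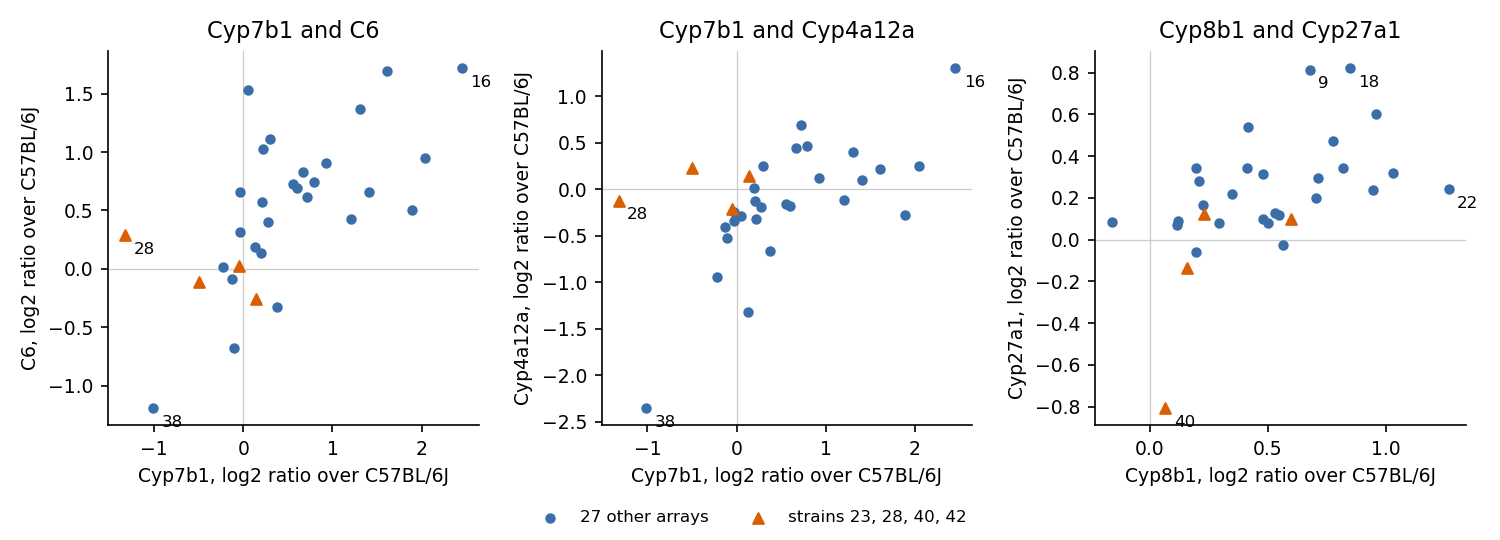
Each point is 1 BxD strain, with the log2 ratio over the C57BL/6J pool of Cyp7b1 or Cyp8b1 on the horizontal axis and that of C6, Cyp4a12a or Cyp27a1 on the vertical axis; triangles mark strains 23, 28, 40 and 42, circles the other 27 strains, and numbers name strains. Strain 16 is at the upper right and strain 38 at the lower left of both Cyp7b1 panels, and strain 40 lies far below the other points of Cyp27a1.

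Between the 9 members 36 pairs were correlated over the 31 strains, with two-sided permutation p-values from 100000 draws adjusted over the 36 pairs, and 5 pairs passed. Each of these 5 held Cyp27a1, Amacr, Baat or Slc10a1. In limma, adjusted over all probes, these genes were followed by 11.1%, 30.3%, 31.6% and 36.3% of all probes. The 3 strongest were the pairs of the genes that share a place: Amacr with Slc10a1 at r = 0.83 (adjusted p = 0.00036), Amacr with Baat at r = 0.76 (adjusted p = 0.00144) and Baat with Slc10a1 at r = 0.70 (adjusted p = 0.00144). Only Amacr with Slc10a1 passed also by rank, at rho = 0.85, while the rho of the other 2 pairs was 0.39 and 0.37. With the fine place median subtracted these 3 pairs had r = -0.041, 0.19 and -0.15, and none passed.

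The other 2 pairs linked Cyp27a1 with Cyp8b1 and with Abcb11. Cyp8b1 and Cyp27a1 had r = 0.51 (permutation p = 0.0028, adjusted p = 0.0203) and rho = 0.58 (adjusted p = 0.014), and r was 0.58 without the 2 strains farthest from the Cyp8b1 median. Strains 5 and 18 were high for both enzymes and strain 40 was low for both. In the 27 strains without the 4 arrays r was 0.45, which did not pass the adjustment over 36 pairs (adjusted p = 0.229). Leaving out strain 5, strain 18 or strain 40 alone also ended the call (r = 0.48 in each case, adjusted p = 0.0546, 0.0501 and 0.0604). Cyp27a1 and Abcb11 had r = 0.54 (permutation p = 0.0016, adjusted p = 0.0141), but rho was 0.31 (adjusted p = 0.356) and r without the 2 farthest strains was 0.37 (adjusted p = 0.261). Without strain 40, where both genes had their lowest value, r was 0.43 (adjusted p = 0.144), and without strain 9, the second highest for both, it was 0.47 (adjusted p = 0.0653), so that this relation rests on those strains.

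Among the 15 pairs of the 6 members outside the shared place, r had a median of 0.18 and lay between -0.23 and 0.54, with 12 pairs above 0. Without the 4 arrays the median was 0.11 and the range -0.23 to 0.45. Cyp7a1 and Cyp8b1, the 2 enzymes of the classic pathway, had r = 0.011 (permutation p = 0.955), and the Cyp7a1 correlation farthest from 0 among the 8 was -0.23, with Cyp7b1 (permutation p = 0.209). Cyp27a1 and Cyp7b1, the 2 enzymes of the alternative pathway, had r = 0.28 (permutation p = 0.135), or 0.11 without the 4 arrays. Cyp8b1 and Hsd3b7 had r = 0.34 and Cyp27a1 and Hsd3b7 r = 0.32, neither of which passed.

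**Figure D4:**
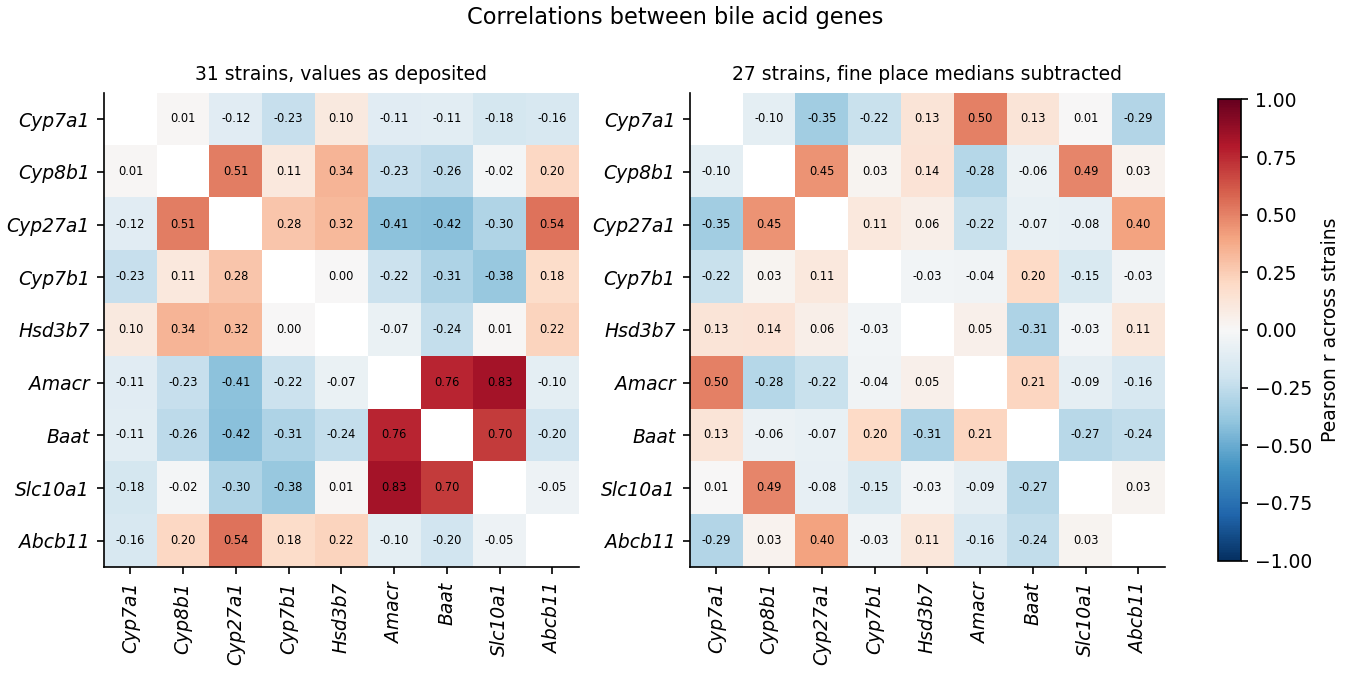
Pearson r across strains is given for each pair of the 9 genes (both axes), by colour and number, on the left for 31 strains with the values as deposited and on the right for 27 strains with the median of each probe's place subtracted. The dark block of Amacr, Baat and Slc10a1 on the left, with r of 0.70 to 0.83, is missing on the right, while Cyp8b1 with Cyp27a1 has 0.51 on the left and 0.45 on the right.

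The promoters of Cyp8b1, Cyp27a1 and Abcb11 are shown because these genes made up the 2 called pairs outside the shared place. Each is the 250 bases before the start of the gene in RefSeq, assembly GRCm38.p6, written 5′ to 3′ on the strand of the gene, with capitals for the motifs found. The 250-base window of Cyp8b1 is chr9:121916306-121916555 on the minus strand, that of Cyp27a1 chr1:74713285-74713534 on the plus strand, and that of Abcb11 chr2:69342617-69342866 on the minus strand.
Cyp8b1: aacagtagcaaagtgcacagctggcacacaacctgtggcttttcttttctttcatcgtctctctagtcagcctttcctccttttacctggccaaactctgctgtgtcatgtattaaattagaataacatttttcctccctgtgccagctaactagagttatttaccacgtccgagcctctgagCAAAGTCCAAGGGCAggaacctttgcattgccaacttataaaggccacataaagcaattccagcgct
Cyp27a1: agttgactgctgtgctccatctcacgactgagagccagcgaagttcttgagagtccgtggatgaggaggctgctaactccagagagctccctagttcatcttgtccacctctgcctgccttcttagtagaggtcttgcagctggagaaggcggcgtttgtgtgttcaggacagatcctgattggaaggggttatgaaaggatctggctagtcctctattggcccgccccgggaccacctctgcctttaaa
Abcb11: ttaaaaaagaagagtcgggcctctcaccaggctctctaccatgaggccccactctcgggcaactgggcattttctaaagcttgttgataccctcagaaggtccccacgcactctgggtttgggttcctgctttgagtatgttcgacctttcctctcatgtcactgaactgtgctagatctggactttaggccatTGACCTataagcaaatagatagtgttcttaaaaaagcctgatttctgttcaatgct
In these promoters 5 motifs of liver factors were searched on both strands: AGGTCA of nuclear receptors, CAAGGNCA of NR5A2, CAAAGNCCA of HNF4, GTTAAT of HNF1 and TTCNNNGAA of STAT5. In windows of the same length, 14.0% of 32851 RefSeq promoters held AGGTCA, 5.53% CAAGGNCA, 1.70% CAAAGNCCA, 6.43% GTTAAT and 7.02% TTCNNNGAA. The Cyp8b1 promoter held CAAAGTCCA, ending 59 bases before the start, and CAAGGGCA, ending 53 bases before it, and the 2 overlap by 2 bases. The Abcb11 promoter held TGACCT, which is AGGTCA on the other strand, ending 51 bases before the start, and the Cyp27a1 promoter held no match. No motif of this search was found in more than 1 of the 3 promoters.

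Over the whole array, the members differed widely in how many of the 21764 other probes followed them across strains (limma, slope on the member's value, adjusted over all probes). Cyp8b1 was followed by 52 probes (0.239%), 48 of them with a positive slope (0.221%). The count was 64 without the 4 arrays, but 5 with fine place medians subtracted, 6 with these and without the 4 arrays, 95 with the first principal component as a covariate and 336 with array weights. The named probes with the highest correlation were Bfsp1 (r = 0.78), a cytoskeletal protein known from the lens, Opn3 (r = 0.76), an opsin, and Tmprss6 (r = 0.74), the hepatocyte protease that lowers hepcidin. Tmprss6 passed with all strains (limma adjusted p = 0.00378), without the 4 arrays (r = 0.78), and with fine place medians subtracted in either set of strains, whereas Bfsp1 did not pass with these over all strains (adjusted p = 0.106). Mos and Trip4 were the lowest named ones that passed, both at r = -0.68. The efflux pump Abcb1a was the only one of 24 other bile and sterol transporter probes to pass (r = 0.70, adjusted p = 0.0186, rho = 0.73; r = 0.68 without the 4 arrays), and it passed with medians of the 8 coarse places subtracted (r = 0.69, adjusted p = 0.0236) but not with those of the fine places (r = 0.57, adjusted p = 0.226).

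Hsd3b7 was followed by 2 probes (0.00919%), Amdhd1 (r = 0.76, adjusted p = 0.00584), an enzyme of histidine breakdown, and Cox7c (r = 0.74), a subunit of cytochrome c oxidase whose probe is a multiple of 8 and which did not pass without the 4 arrays (adjusted p = 0.0594). Amdhd1 passed also without the 4 arrays (r = 0.77) and with fine place medians subtracted (r = 0.80 over 27 strains), although r was 0.58 without strains 1 and 19. Agxt, the peroxisomal enzyme that removes glyoxylate, was the third highest (r = 0.66) and did not pass, but passed over all strains with fine place medians subtracted (r = 0.71, adjusted p = 0.0216). Cyp7a1 was followed by 1 probe (0.00459%), which has no gene in the annotation. With fine place medians subtracted 13 probes followed Cyp7a1 and 7 followed Hsd3b7, and with array weights these counts were 14 and 7. Abcb11 was followed by none (0%) in limma, with 8.16% of probes under an unadjusted p of 0.05, Shkbp1 (r = 0.70) being the highest and Agtr1a (r = -0.68) the lowest.

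Cyp27a1 was followed by 2416 probes (11.1%), but by 1 probe without the 4 arrays (0.00459%). Its highest named correlations were with Zc3h13 and Pfdn4 (both r = 0.81) and Ndufa4 (r = 0.79), which had r = 0.60, 0.61 and 0.64 without the 4 arrays and did not pass there. Amacr was followed by 6588 probes (30.3%), Baat by 6873 (31.6%) and Slc10a1 by 7895 (36.3%), and without the 4 arrays by 336 (1.54%), 0 (0%) and 1091 (5.01%), the 0 of Baat standing beside 5.78% of probes under an unadjusted p of 0.05. The 3 named genes most like each of these 3 members, such as Pldi for Amacr (r = 0.98), Sh2d4a for Baat (r = 0.93) and Lrp2bp for Slc10a1 (r = 0.96), all had identifiers that are multiples of 8.

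Regulators of bile acid genes include nuclear receptors, hepatocyte factors and the hormone pathways that repress synthesis. Of 36 probes for 32 regulators, none passed as following Cyp7a1, Cyp8b1, Cyp7b1, Hsd3b7 or Abcb11 in limma, while at an unadjusted p under 0.05 the counts were 6, 6, 1, 2 and 1. For Cyp7a1 these correlations lay between -0.42 and 0.44, with a median of -0.046, and for Cyp8b1 between -0.50 and 0.49. Of all probes, 11.2%, 10.2%, 16.2%, 3.83% and 8.16% had an unadjusted limma p under 0.05 for these 5 members in the same order. None of 17 circadian clock probes passed for these 5 members either, with 0, 0, 2, 2 and 2 at an unadjusted p under 0.05, beside the same shares. The time of day of collection is not given in the sources used here. Cyp27a1 was followed by the repressor Mafg (r = 0.55), by Nr2f2 (r = -0.57) and Mapk8 (r = -0.53), both multiples of 8, and by the clock genes Per1 (r = 0.63) and Bhlhe40 (r = 0.53), that is by 3 of 36 regulator probes and 2 of 17 clock probes, against 11.1% of all probes. None of these 5 passed without the 4 arrays, where their r lay between -0.067 and 0.21. For Amacr, Baat and Slc10a1 the regulators and clock genes that passed were Vdr, Foxa1, Cebpa, Fgf21, Mafg, Gps2, Nr2f2, Jun, Mapk8, Cebpb, Fgf15, Foxa2, Per1, Nr1d2, Dbp, Bhlhe40 and Cry1, each with at least 1 of the 3. The regulator probes that passed were 9 of 36 for Amacr, 10 for Baat and 10 for Slc10a1, and the clock probes 4, 5 and 3 of 17, against 30.3%, 31.6% and 36.3% of all probes. Without the 4 arrays 1, 0 and 1 regulator probes and 0 clock probes passed, against 1.54%, 0% and 5.01% of all probes in limma.

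In the panel mean, 11 of the 36 regulator probes were higher and 18 lower than in C57BL/6J, with a median of -0.12, against 37.4% and 37.6% of all probes. Nr1h4, the bile acid receptor, had a mean of -0.33 ± 0.03, and Nr0b2, the repressor it induces, 0.19 ± 0.05; both are given for their roles, after their values were seen, and had -0.19 and 0.42 with fine place medians subtracted. Fgf15, the intestinal hormone that lowers Cyp7a1, had -1.24 ± 0.13 in liver RNA, and its receptor Fgfr4 0.35 ± 0.09. Intensities were not used, so the ratio does not show whether Fgf15 RNA was present in liver. Vdr stood at -0.85 ± 0.08 and below 0 in all 31 strains, and Nr2f2 (-1.39) and Mapk8 (-1.23) are multiples of 8. Nr5a2 (-0.30 ± 0.11), which acts on Cyp7a1 and Cyp8b1, is a multiple of 8 as well and had 0.20 (adjusted p = 0.065) with fine place medians subtracted. The probes of Hnf4a went both ways, at -0.79 and 0.20, so that no direction is given for that gene.

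Of 17 probes for other enzymes of synthesis and conjugation, 10 were higher and 4 lower, against 37.4% and 37.6% of all probes, with a median of 0.16. The bile acid activating enzymes Slc27a2 (0.84 ± 0.10) and Slc27a5 (0.72 ± 0.08) lay above 0 in 30 of 31 strains each and supply the CoA esters that Baat conjugates. Akr1c14 (-1.02 ± 0.07), a multiple of 8, and the peroxisomal transporter Abcd3 (-0.45 ± 0.06) were lower. Of 24 transporter probes 11 were higher and 5 lower, against the same 37.4% and 37.6%. Slco1a4 (0.49 ± 0.06) and Abcb1b (0.51 ± 0.14, or 0.90 with fine place medians subtracted) were among the higher, and the 3 probes of the uptake transporter Slco1b2 went both ways, at 0.57, -0.48 and -0.61. Strain 38 had by far the lowest value of Abcb4, the phospholipid flippase of the canaliculus, at -2.77, and of Abcb1b, at -2.47, while Abcb1a stood at 0.33 and Abcb11 at 0.73 there. Abcb4 was chosen after its values were seen.

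Genes that make or take up cholesterol, the substrate of the pathway, had 19 probes, of which 11 were higher and 2 lower, with a median of 0.17, against 37.4% and 37.6% of all probes. Sqle (0.78 ± 0.08), Msmo1 (0.68 ± 0.07) and Fdps (0.47 ± 0.06) led the higher ones, and Ebp (-0.40 ± 0.06) the lower. Dhcr7 (r = 0.51) and Nsdhl (r = 0.54) followed Cyp27a1, but had r = -0.043 and 0.23 without the 4 arrays and did not pass there. Of 17 clock probes 3 were higher and 8 lower, and of 19 probes of sex-biased and growth hormone dependent genes 8 were higher and 5 lower, Cyp7b1 itself among the higher, beside the same shares of all probes.

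Markers of hepatocytes and of other cells went in both directions, and the counts stand against 37.4% of all probes higher and 37.6% lower. Of 10 hepatocyte probes 5 were higher and 3 lower, of 12 cholangiocyte probes 5 and 4, of 12 Kupffer cell probes 7 and 2, of 14 stellate and endothelial probes 9 and 4, of 7 adipocyte probes 1 and 3, of 14 exocrine pancreas probes 5 and 6, of 12 small intestine probes 7 and 4, and of 3 red blood cell probes 1 and 1. In strain 40, the lowest for Cyp27a1 and Abcb11, the median of the hepatocyte probes lay 0.33 below their panel medians and that of the Kupffer cell probes 0.39 below, and in strain 16, the highest for Cyp7b1, the same medians were -0.11 and 0.03. Cyp27a1 was followed by 3 Kupffer cell probes (Cd68, Marco and Lyz2) and 2 hepatocyte probes (Serpina1a and Fah), that is 3 of 12 and 2 of 10 against 11.1% of all probes, and by none of them without the 4 arrays, and the part of these cells in its values was not tested. Since a ratio has no level, it cannot show which of these markers are absent from the tissue.

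The members were last set against the 10 nearest measured genes on their chromosome, 5 on each side, to see whether neighbours varied together. No neighbour passed in limma for Cyp7a1 (chromosome 4), Cyp8b1 (chromosome 9), Cyp7b1 (chromosome 3), Hsd3b7 (chromosome 7) or Abcb11 (chromosome 2), with 1, 3, 4, 0 and 1 probes under an unadjusted p of 0.05. The highest of these correlations was 0.55, for a neighbour of Cyp8b1. Of all probes, 11.2%, 10.2%, 16.2%, 3.83% and 8.16% had such an unadjusted p for these members in the same order. Cyp27a1 (chromosome 1) had 1 of 10 probes, against 11.1% of all probes. That neighbour was Cryba2 (r = -0.56), which had r = -0.13 without the 4 arrays. Amacr (chromosome 15) had 4 of 11, Baat (chromosome 4) 4 of 10 and Slc10a1 (chromosome 12) 5 of 10, against 30.3%, 31.6% and 36.3% of all probes. The one neighbour whose r rose above 0.8 without the 4 arrays was 4930556M19Rik beside Amacr, at 0.85, and its identifier is a multiple of 8.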

How the data were processed

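The authors deposited 1 table of normalized log ratios for 31 arrays, made with R 2.0.0 and limma per the submitters' processing notes. The authors' deposited values were taken to be log2 ratios with the strain in the numerator, a base and direction that no source used here states. The direction is likely because strain RNA was labelled with Alexa Fluor 647, and limma places that channel in the numerator. No pair of arrays correlated clearly below 0 (lowest r = -0.04), which bears on whether the arrays share 1 orientation and on neither base nor direction. The sorted values of all arrays differed by at most 0.000256, with a median of -0.001 and an SD of 0.51, so the arrays had been brought to 1 distribution before deposit. Intensities were not used here, so signal over background is unknown, and the number of arrays limits precision.

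Of 23040 features, 1275 were empty and 21765 were tested. The annotation gave 1 gene for 16642 of these, several for 134 and none for 4989. Of the probes with 1 gene, 15964 were matched by gene ID to a RefSeq table of GRCm38.p6 and took its symbol. Panel means were tested against 0, and each probe was regressed on each member, with limma 3.58.1 in R 4.3.3 (eBayes after lmFit, two-sided, with Benjamini-Hochberg adjustment and a threshold of 0.05). The p-values measure the spread between arrays, and the reference's own spread is left out. Each strain was hybridised once, so strain differences cannot be told apart from those of arrays, labelling or pools. Pairs of members were correlated in Python 3.11.15 with numpy 2.4.6 and scipy 1.17.1, with 100000 permutations, whose smallest p is 1e-05. Fits were tested on simulated data that held no arrays standing apart and no places varying together, so those trials do not bear on either. No scan or slide labels were given to test as batches.

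Named beside the members were, per list, up to 4 called genes by absolute mean, 4 by SD, the regulators and clock genes that followed a member, the 3 genes of highest and of lowest r for each member, and neighbours that passed. The members, lists and alternatives were chosen with earlier results of these data known. Alternatives left out strains 23, 28, 40 and 42 or 1 strain at a time, subtracted the median of each place (identifiers modulo 8, or the finer modulo 480, which was chosen after seeing the data), centred arrays on their median, weighted arrays, used robust regression or a robust prior, removed the first principal component, used ranks, or asked for a mean beyond 0.2.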

Additional observations from a re-analysis of the deposited data

How the results depend on the processing

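The panel means of Cyp7a1, Cyp8b1, Cyp27a1, Cyp7b1, Hsd3b7 and Abcb11 kept their direction under every alternative run, and lost the call only when a mean beyond 0.2 was asked for, Cyp8b1 excepted. That demand left 4 of the 9 members and 7229 of the 16325 probes called. Leaving out each strain in turn gave 16172 to 16500 called probes. The mean of Slc10a1 turned to 0.075 with medians of 8 places subtracted, 0.059 with medians of the fine places, and 0.087 with these and without strains 23, 28, 40 and 42. Of the 36 pairs, 5 passed, against 4 with medians of 8 places, 1 without those 4 arrays, with or without medians of 8 places, 1 with the first principal component removed, 2 by rank and 2 without the 2 farthest strains. Leaving out each strain in turn gave 3 to 5 pairs. With fine place medians 0 pairs passed by permutation, with 3 at an unadjusted p under 0.05 and 1 by rank, and 0 also without the 4 arrays (4 unadjusted, 1 by rank). Amacr with Slc10a1 turned to r = -0.041 with fine place medians and to -0.089 without the 4 arrays as well, and Baat with Slc10a1 to -0.15 and -0.27, or to -0.0047 with medians of 8 places without the 4 arrays. Over the 9 members 23827 probe relations passed, against 1494 without the 4 arrays, 13525 with medians of 8 places (865 without the 4 arrays), 1664 with fine place medians (774 without the 4 arrays), 1447 with the first principal component as a covariate and 9305 with array weights. The causes were not tested. No paired analysis was possible because the strains form a single group. Depth and signal over background are unknown.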
